A study of Mus musculus with 2 samples.

Results

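Delta cells, the somatostatin-secreting endocrine cells of the pancreatic islet, were taken from 2 single-cell RNA sequencing libraries of mouse islets. A barcode was counted as a delta cell when it held at least 2000 UMIs (transcript molecules counted by unique molecular identifiers), at most 20% mitochondrial UMIs and at least 1% Sst UMIs, and when insulin (Ins1 and Ins2 together), Gcg and Ppy each stayed below 20% of its Sst UMIs. This gave 927 delta cells among 15958 barcodes. The hormone genes chose the cells, so their levels are given as a description without a test.

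Delta cells lie scattered among beta and alpha cells and release somatostatin, which acts through Gi-coupled receptors to restrain both insulin and glucagon release. They are excitable cells with ATP-sensitive potassium channels and voltage-gated calcium channels, and the secretagogues known for them include ghrelin, through Ghsr, and urocortin 3 released by beta cells, through corticotropin-releasing hormone receptors. The transcription factor Hhex maintains their identity. In the NOD mouse, T cells infiltrate the islets and destroy beta cells, while the other endocrine cells are exposed to the same cytokines.

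The mice were 15-week-old wild-type NOD/ShiLtJ, an inbred strain that develops autoimmune diabetes spontaneously. One library came from mice on a diet labelled 16% HC with 4% gluten (below, the gluten library) and the other from mice on 20% HC (the HC library), where HC is not expanded by the labels. Islets were handpicked and dissociated, and cells of 3 mice were pooled per library, so there is 1 library per diet, no replicate within a diet and no test between diets. Brackets hold 95% intervals that cover counting error only, values are given for the gluten library first, and log2 ratios are gluten over HC. The tables held 8200 and 7758 barcodes with 88268070 and 116900677 UMIs, of which 6231 and 6809 barcodes met the UMI and mitochondrial limits, and 15 barcodes occurred in both libraries, 0 of them among delta cells.

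Delta cells numbered 615 in the gluten library, 9.87% [9.14, 10.6] of the barcodes within the limits, and 312 in the HC library, 4.58% [4.10, 5.11]. The difference was 5.29 percentage points [4.40, 6.19]. Of the endocrine cells picked by rules of the same form (alpha by Gcg, beta by insulin, PP by Ppy, and delta), delta cells made up 18.9% [17.6, 20.3] of 3251 cells with gluten and 11.2% [10.1, 12.4] of 2786 cells without, where beta cells had to reach 10% insulin UMIs. With pooled mice, differences between animals and between diets cannot be told apart.

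The delta cells were well covered. Their median depth was 8049 UMIs and 2595 genes in the gluten library, and 10713 UMIs and 3219 genes in the HC library. Mitochondrial UMIs had medians of 2.57% and 2.25%. Sst itself took a median of 20.0% of the UMIs of a delta cell with gluten (range 1.22 to 45.1%) and 18.6% without (3.36 to 33.6%). Few cells sat near the limits of the rule. Sst lay between 1% and under 5% in 4 and 1 cells inside it, and 0 and 0 barcodes lay between 0.5% and 1%. Another hormone lay at 10 to under 20% of Sst in 26 and 21 cells inside and at 20 to under 30% in 13 and 4 barcodes outside, and 54 and 19 barcodes with Sst above 10% were left out because another hormone reached 20% of it.

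Some of these barcodes also carried transcripts of other lineages. At least 10 UMIs of a 15-gene T cell list occurred in 14 (2.28%) and 18 (5.77%) delta cells, of a 12-gene B cell list in 22 and 7, of a macrophage list in 19 and 12, of an endothelial list in 4 and 0 and of a mesenchymal list in 9 and 0. The median delta cell held 0 UMIs of the T, B, endothelial and mesenchymal lists in both libraries, and 3 and 5 UMIs of the acinar enzyme list. Single barcodes dominated some of these sums: 1 gluten cell held 5231 of the 6678 B cell list UMIs, and 1 HC cell held 16147 of the 18238 acinar UMIs. Summed over delta cells, the T list stood at 115 and 218 counts per 1000000 UMIs (CPM), the endothelial list at 126 and 31.5 and the mesenchymal list at 141 and 4.80, with 0 and 4 of 11 endothelial and 1 and 2 of 11 mesenchymal members at 0. The main comparisons between diets are therefore also given for the 562 and 277 delta cells left after removing barcodes with at least 10 UMIs of any of these 5 lists or at least 50 acinar UMIs, a choice made after seeing the data, and these are called the marker-free delta cells.

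The delta label held against its markers. Hhex, on chromosome 19 (37434810-37440731, plus strand, mm10), stood at 410 and 438 CPM in delta cells, against 8.64 and 9.79 in alpha cells, 9.64 and 7.81 in beta cells and 18.98 and 26.9 in PP cells. Rbp4, the plasma retinol carrier (19:38116629-38125281, minus strand), stood at 11560 and 12226 CPM, against 1921 and 1734, 250 and 229, and 1211 and 1406. Arg1, the arginase that splits arginine into ornithine and urea (10:24915221-24927484, minus), stood at 277 and 386 CPM, against 26.1 or less in every other class. Ghsr, the ghrelin receptor (3:27371351-27378010, plus), was low, at 13.2 and 17.6 CPM, against 1.05 or less elsewhere. For all 4 genes both delta values lay above the 6 values of the other classes. Sst (16:23889573-23890958, minus) was at 202575 and 192050 CPM, and at 1498 to 8723 CPM in the other classes.

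Somatostatin is a textbook target of cyclic AMP signalling, and the palindromic cyclic AMP response element was found in its promoter, within the 250 bases before the start in the RefSeq table (GRCm38.p6). The stretch chr16:23890874-23890903, minus strand, is printed with the element in capitals, 48 bases before the RefSeq start. GENCODE has a transcript that starts further upstream, and all 30 printed bases lie in a GENCODE exon of Sst.
Sst: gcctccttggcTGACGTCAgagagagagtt
The same 8 letters, TGACGTCA, a palindrome that reads alike on both strands, occurred in the 250-base windows of 1.77% of the 27025 genes with a window. Of the 4 delta markers with a window, only Sst held it.

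**Figure D1:**
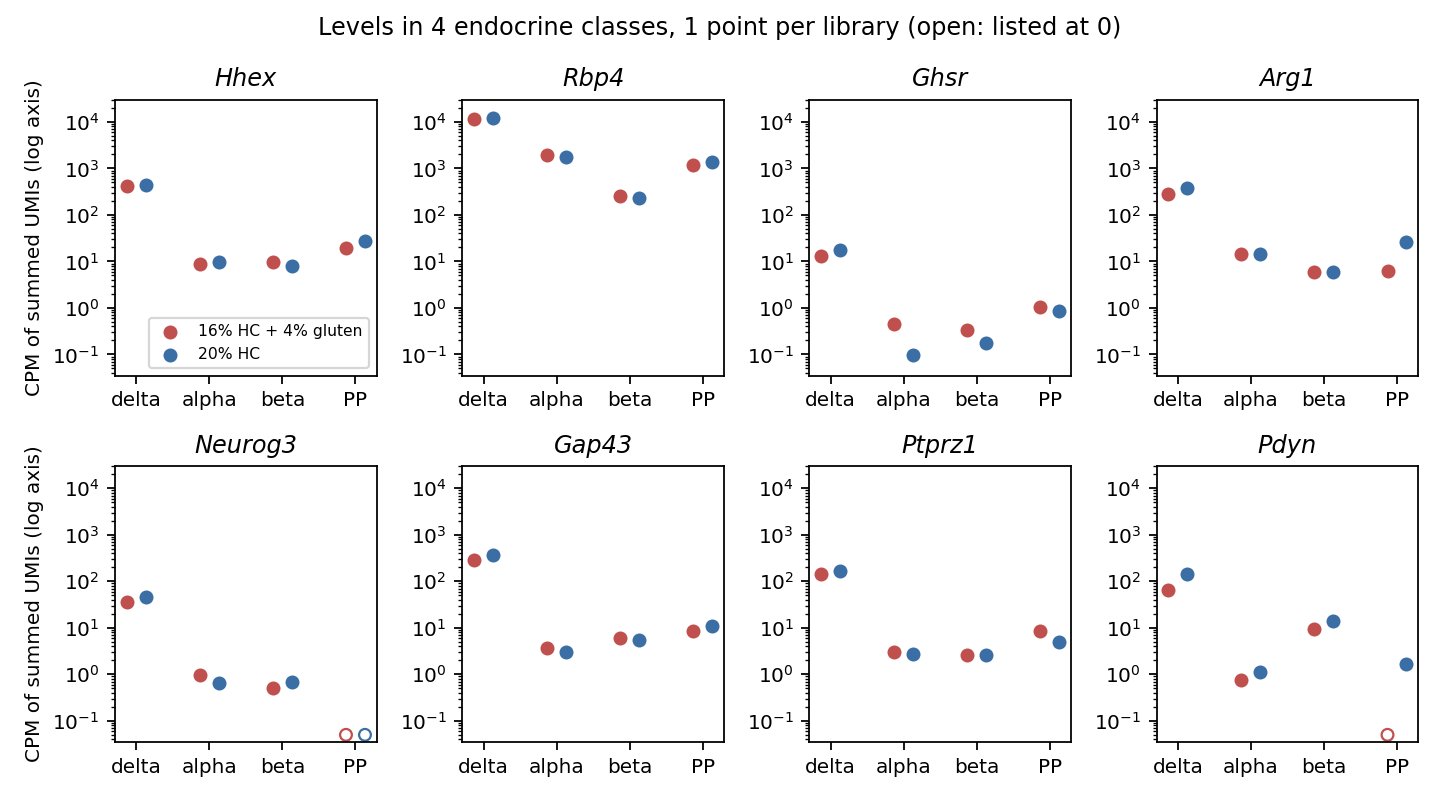
CPM of UMIs summed over the cells of each endocrine class (log axis), 1 point per library, for Hhex, Rbp4, Ghsr, Arg1, Neurog3, Gap43, Ptprz1 and Pdyn. Open points are listed at 0. In all 8 panels both delta points lie above every other class, with Hhex at 410 and 438 CPM in delta cells and at most 26.9 elsewhere.

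Cell by cell, after thinning every cell to 2000 UMIs, Hhex was seen in 59.0% [55.0, 62.9] and 58.7% [52.97, 64.2] of delta cells. T cells of the same libraries (at least 5 UMIs of the T list, median depth 3577 and 3222 UMIs before thinning) served as cells that should lack islet transcripts, and 2.94% and 1.51% of them had an Hhex UMI. Arg1 was seen in 42.3% and 52.6% of delta cells and in 0.587% and 0.597% of T cells. Ghsr was seen in 2.93% [1.74, 4.59] and 4.17% [2.24, 7.02] of delta cells and in 0 of 1192 and 0 of 2179 T cells, which allows shares up to 0.252% and 0.138% (3 cells over the total). Sst UMIs reached 38.8% and 27.6% of T cells and 30.2% and 22.9% of alpha cells, and free RNA as its source there was not tested. Ppy was seen in 36.1% and 38.5% of delta cells, 24.6% and 22.99% of T cells and 33.4% and 33.1% of alpha cells. The Ppy shares of delta and alpha cells lay close together, and a tail of delta cells held more: Ppy made up at least 1% of UMIs in 36 and 31 delta cells. Pyy, the peptide YY gene, had a UMI in 99.8% and 99.7% of thinned delta cells and in 13.8% and 11.9% of T cells. It was also seen in 82.1% and 80.1% of alpha cells and in 100% and 100% of PP cells.

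To find genes of delta cells beyond the rule, UMIs were summed per class and library, and delta sums were compared with alpha, beta and PP sums (edgeR quasi-likelihood test, library as a block, Benjamini-Hochberg adjustment over 13452 genes; the 5 hormone genes and mitochondrial genes were left out). The 2 libraries are the replicates, and they also differ in diet. Alpha cells numbered 1183 and 667, beta cells by the 1% limit 2771 and 2804, and PP cells only 44 and 45. Of these beta barcodes 1409 and 1762 reached 10% insulin UMIs. The others may include cells of other types with free insulin RNA, which was not tested. CPM values of beta cells are sums over all barcodes of the 1% limit. A gene was called where delta cells differed in the same direction from all 3 classes at an adjusted p below 0.05. Higher in delta cells were 323 genes (2.40% of those tested) and lower were 191 (1.42%). Folds here are relative to the genes that are not hormones, after TMM scaling. Scaled to the total of all UMIs, hormones included, the median gene moved up by 0.34, 1.02 and 0.63 on the log2 scale against alpha, beta and PP cells, and the same test then called 2929 genes higher and 78 lower. All 323 higher calls remained among them, and 73 of the 191 lower calls. Among marker-free cells the counts were 408 and 250, of which 292 and 167 were shared with the first, and with each class hormone at 10% of UMIs or more they were 395 and 234, of which 302 and 168 were shared. Genes below that are named although the rule for names did not pick them, as list members that passed or missed the test, were chosen after their values were seen.

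Neurog3 is the transcription factor that starts the endocrine programme in the embryonic pancreas (10:62133090-62134763, plus). Ranked by the smallest fitted edgeR fold, it came first among called genes at 20 CPM or more. Its fitted fold over PP cells rests on 0 UMIs there, so its rank among the top genes is not settled. It stood at 36.3 and 45.9 CPM in delta cells, at 0.960 and 0.665 in alpha cells and at 0.505 and 0.675 in beta cells. In PP cells it had 0 UMIs, so it was at least 11.5-fold and 18.2-fold higher in delta cells, with 3 counts per library as the floor. It was seen in 44 and 23 delta cells after thinning (7.15% and 7.37%), in 1 and 1 alpha cells and in 0 T cells. The fold was 5.26 on the log2 scale over alpha and 5.07 over beta cells (edgeR adjusted p = 1.42e-05 and 6.5e-06). Neurog3 transcripts were thus spread thinly over delta cells of both libraries.

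Gap43, a growth cone protein of neurons, stood at 288 and 367 CPM in delta cells and at 3.04 to 10.9 CPM elsewhere (log2 fold 6.23, 4.82 and 4.42 over alpha, beta and PP, largest edgeR adjusted p = 1.92e-05). A UMI of Gap43 was seen in 42.4% and 49.4% of thinned delta cells and in 0.252% and 0.0459% of T cells. Ptprz1, a receptor tyrosine phosphatase of the nervous system, stood at 143 and 169 CPM and at 8.44 or less elsewhere. The synaptic vesicle calcium sensor Syt1 (76.4 and 69.9 CPM), the GPI-anchored protein Ly6h (559 and 506) and Shisal2b (852 and 945) were also among the 14 genes farthest above the other classes at 20 CPM or more. So were the paternally expressed imprinted genes Dlk1 (133 and 105 CPM) and Mest (51.4 and 85.1), together with Luzp2, Fstl5, Erich5, Ppp1r17, Arg1 and Hhex. Each of these was higher in both libraries than in all 6 sums of the other classes.

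At the other end, Lpl, lipoprotein lipase, stood at 4.96 and 5.07 CPM in delta cells against 484 and 625 in alpha cells, 53.4 and 60.1 in beta cells and 149 and 174 in PP cells. Ociad2 stood at 1.29 and 1.87 CPM against 25.2 to 90.4. Kcnh6, an ERG-type potassium channel, and Igsf21, a synaptic adhesion protein, had 0 UMIs in delta cells of both libraries, where alpha cells held 9.68 and 7.98 CPM of Kcnh6 and 16.6 and 15.6 CPM of Igsf21. That is at least 17.6-fold and 9.97-fold lower for Kcnh6 and at least 30.2-fold and 19.5-fold lower for Igsf21. Ppp1r3b, Adh1, Kctd12b and Ugt2b34 completed the 8 genes farthest below.

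Of 27 islet transcription factors tested, 6 were higher in delta cells (Hhex, Isl1, Rfx6, Rfx3, Neurog3 and Hopx) and 3 were lower (Nkx2-2 and Nkx6-1 among them). The Nkx6-1 call was lost on the total of all UMIs. Isl1, a LIM-homeodomain factor of all islet endocrine cells, stood at 406 and 490 CPM in delta cells, 187 and 212 in alpha, 72.9 and 78.3 in beta and 113 and 170 in PP cells. Pdx1, which delta cells share with beta cells, stood at 88.3 and 110 CPM in delta, 75.4 and 77.9 in beta and 2.44 and 1.90 in alpha cells. Its fold over alpha cells was 5.13 on the log2 scale (edgeR adjusted p = 6.01e-06). Meis2 (340 and 427 CPM), Pax6 (197 and 273), Insm1 (199 and 226) and Etv1 (142 and 193) were the other highly expressed factors, and none of these 4 passed against all 3 classes.

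Of 11 other islet peptide hormones tested, 1 was higher in delta cells, Pdyn, which encodes prodynorphin, the precursor of the dynorphin opioid peptides (2:129686565-129699844, minus). Pdyn stood at 66.5 and 147 CPM in delta cells, 9.62 and 13.8 in beta cells, 0.739 and 1.14 in alpha cells and 0 and 1.68 in PP cells. Iapp, the amylin gene, was shared with beta cells, at 25461 and 33989 CPM in delta and 36478 and 45541 CPM in beta cells, against 734 and 745 in alpha cells. Pyy was shared with PP cells, at 22176 and 26722 CPM in delta against 104200 and 107384 in PP, 6590 and 7339 in alpha and 503 and 426 in beta cells. Delta cells thus held an intermediate Pyy level in both libraries.

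Among 16 genes of prohormone processing and granins, Chgb, chromogranin B, was higher, at 3818 and 4525 CPM against 478 to 1329 elsewhere (log2 fold 2.67, 1.65 and 1.37, largest edgeR adjusted p = 0.000812). Chga, chromogranin A, was lower, at 998 and 1072 CPM against 3643 and 3941 in alpha and 3192 and 3492 in beta and 1063 and 1456 in PP cells. Scg5 and Cpe were also called lower, which was lost on the total of all UMIs. Scg2 stood at 3539 and 3909 CPM in delta cells and Pcsk2, the convertase of glucagon and somatostatin precursors, at 1972 and 2369. Of 22 genes of exocytosis, the vesicle GTPase gene Rab3b was higher (117 and 134 CPM against 11.3 to 40.4). Cadps, a priming factor for dense-core vesicles, was lower (6.06 and 5.87 CPM against 31.6 to 108), and Syt4 and Syt13 were called lower only after TMM scaling.

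Of 26 ion channel genes of excitability, 4 were higher and 1 was lower. Cacna1h, a T-type calcium channel, stood at 30.5 and 33.4 CPM against 3.16 or less, and Cacna2d2, a calcium channel accessory subunit, at 34.5 and 38.7 against 5.89 or less. The sodium channel Scn9a stood at 119 and 139 CPM against 18.0 to 37.8, and the accessory subunit Scn3b at 60.6 and 62.4 against 1.20 to 15.1. Abcc8, the sulfonylurea receptor subunit of the ATP-sensitive potassium channel, was the highest channel gene at 458 and 478 CPM and did not pass against PP cells (edgeR adjusted p = 0.178). The 4 higher genes were all subunits of voltage-gated calcium or sodium channels.

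Of 33 receptor genes, 3 were higher (Ghsr and P2ry1 among them) and 4 were lower (Ffar1, Gabbr2, Vipr1 and Gpr119, the last only after TMM scaling). P2ry1, a purinergic receptor for ADP, stood at 47.6 and 62.7 CPM against 9.09 and 15.6 in beta cells and 4.22 or less in alpha and PP cells. Crhr2, a urocortin receptor, stood at 13.03 and 10.4 CPM in delta cells and at 1.68 or less elsewhere. It passed against alpha and beta cells (log2 fold 5.43 and 5.37) and not against PP cells (edgeR adjusted p = 0.0723). Ffar4, a receptor for long-chain fatty acids, stood at 111 and 111 CPM, above beta cells at 4.61 and 4.07, and missed the threshold against PP cells (adjusted p = 0.172).

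The calls in the next lists stand beside 2.40% called higher and 1.42% called lower among all genes tested. Of 20 genes of arginine and polyamine metabolism, Arg1 was higher and 3 were lower, of which only the arginine transporter Slc7a2 (10.1 and 12.3 CPM against 36.9 to 286) was also called on the total of all UMIs, and Oat and Srm were not. Of 12 genes of retinol transport and signalling, Rbp4 was higher and Ttr, the plasma partner of retinol-binding protein, was lower, at 88.3 and 46.4 CPM against 9628 and 8245 in alpha cells (log2 fold -7.37, edgeR adjusted p = 6.01e-06). Rxra was called lower only after TMM scaling. Of 3 metallothionein genes, Mt1 and Mt2 were lower, with Mt1 at 122 and 26.9 CPM against 189 to 1230 elsewhere. Of 13 ductal markers, 3 were higher (Epcam, Ambp and Atp1b1) and 1 was lower, Krt7, a keratin, whose call was lost on the total of all UMIs. Ambp stood at 171 and 205 CPM against 9.30 to 18.98.

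Delta cells also held some pancreatic enzyme transcripts. Cela1, a chymotrypsin-like elastase, stood at 325 and 762 CPM against 24.7 to 34.9 in alpha and beta cells, and at 42.2 and 446 in PP cells. It passed against alpha and beta cells (log2 fold 3.63 and 3.02, edgeR adjusted p = 0.0093 and 0.013) and not against PP cells (adjusted p = 0.686). After thinning, a Cela1 UMI was seen in 35.9% and 46.5% of delta cells, 3.97% and 0.900% of alpha cells, 2.63% and 1.59% of beta cells and 5.54% and 1.93% of T cells. In marker-free delta cells Cela1 stood at 333 and 437 CPM. None of the 21 acinar enzymes tested was called higher than in all 3 classes at once, and free acinar RNA at a level that differs between cell types was not tested.

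Between diets, 8123 genes had at least 50 UMIs in delta cells of the library with the higher CPM. With gluten, 143 of these (1.76%) stood 2-fold or more above the HC library and 98 (1.21%) 2-fold or more below it. Many of the largest ratios rested on single barcodes. Glycam1 had 2382 UMIs in the gluten delta cells, 2349 of them in 1 cell, and Lrg1 had 318, of which 317 were in 1 cell. Jchain, Ighm, Sparc, Dcn, Col1a2, Plvap, Ifitm3, Tm4sf1 and Serpina1b, genes of plasma cells, fibroblasts and endothelium among them, completed the 12 with the highest ratio bounds together with Atf3. At the other end stood the enzyme genes Ctrl, Amy1, Ctrc, Pla2g1b and 2210010C04Rik with Tff2, and Ccl8, which had 329 of its 334 HC UMIs in 1 cell, and Cxcl13. In marker-free delta cells 7401 genes were measured, 78 (1.05%) were 2-fold higher and 72 (0.973%) 2-fold lower, and the median ratio of all genes was -0.06 (-0.04 over all delta cells). Of the 12225 genes with at least 10 UMIs in marker-free delta cells, 5152 had ratios above 0 and 7073 below.

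Without those barcodes, Atf3 had the farthest interval bound above 0. The acinar enzyme list is left out of the genes named here. Its direction turned with the barcodes removed. In marker-free cells 8 of its 10 measured members were 2-fold higher with gluten (median 2.63), although its 16 members with at least 10 UMIs summed to 634 and 576 CPM. Atf3, a stress-induced bZIP repressor (1:191170296-191218039, minus), stood at 391 CPM with gluten and 26.9 without (log2 ratio 3.86 [3.55, 4.19]), and at 384 and 29.1 over all delta cells. C2cd4b, an inflammation-inducible nuclear factor, stood at 435 and 71.5 CPM (2.60 [2.41, 2.81]). Csrnp1 stood at 53.1 and 6.33 (3.07), Maff, a small Maf factor, at 56.5 and 8.86 (2.67) and Wee1, a mitotic kinase, at 15.3 and 1.58 (3.27). Mt1, a zinc-binding metallothionein, stood at 121 and 24.4 (2.31), Gem, a small GTPase, at 100.4 and 22.2 (2.18), and Tiparp at 67.9 and 17.4 (1.96). Before thinning, an Atf3 UMI was seen in 391 of all 615 gluten and 41 of all 312 HC delta cells. In thinned marker-free cells Atf3 was seen in 39.7% and 4.69%, C2cd4b in 40.7% and 11.9% and Mt1 in 18.3% and 4.69%. Csrnp1 was seen in 10.3% and 1.81% and Maff in 8.19% and 0.722%.

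Several genes with the farthest interval bounds below 0 were interferon-induced GTPases. Iigp1 stood at 61.3 CPM with gluten and 223 without in marker-free delta cells (log2 ratio -1.86 [-2.07, -1.67]). Gbp7 stood at 24.8 and 109 (-2.13 [-2.45, -1.83]), Gbp3 at 13.4 and 52.5 (-1.97) and Gbp2 at 22.9 and 78.5 (-1.78). Irgm2 stood at 11.9 and 42.7 (-1.85). For these 5 genes the intervals excluded a 2-fold difference or less, and the ratios of Iigp1, Gbp7, Gbp3, Gbp2 and Irgm2 over all delta cells lay between -1.57 and -1.88.

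**Figure D2:**
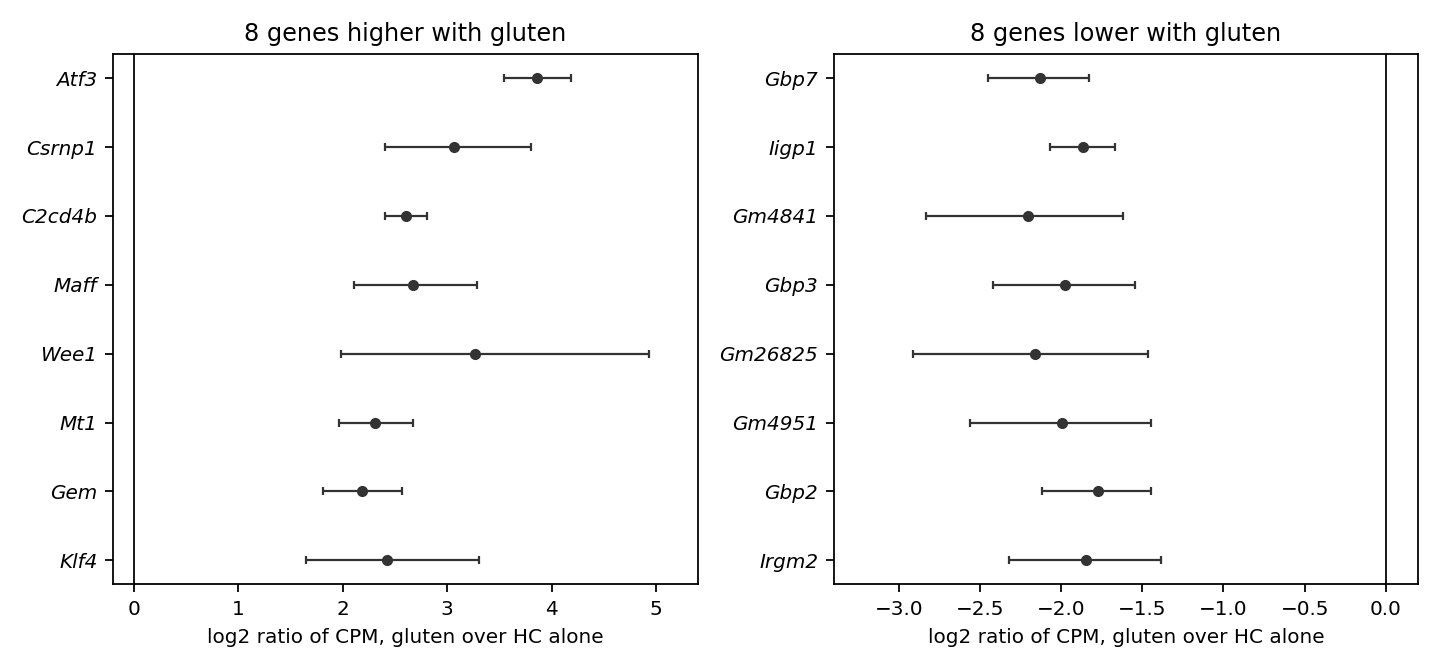
Log2 ratio of CPM between the gluten and the HC library in marker-free delta cells (562 and 277 cells) for the 8 genes with the farthest interval bound in each direction outside the acinar enzyme list, with 95% counting intervals as bars. Atf3 is at 3.86 in the left panel, and Gbp7 at -2.13 and Iigp1 at -1.86 in the right panel.

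The core of the interferon-stimulated response element was looked for as 2 copies of GAAA with 2 bases of any kind between them (2 copies of TTTC on the other strand) in the 250 bases before the start in the RefSeq promoter table (GRCm38.p6). It was found for 15 of the 55 genes with a window among the 72 that were 2-fold lower with gluten (27.3%), for 3 of 56 among the 78 that were higher (5.36%), and for 190 of 5914 measured genes (3.21%). Over all genes with a window it was found in 936 of 27025 (3.46%). The 15 genes were B2m, Bst2, Ddx60, Gbp2, Gbp3, Gbp7, H2-T22, H2-T23, Igtp, Irgm1, Irgm2, Mitd1, Stat2, Tmem140 and Ttyh1. These are matches of letters in a window and say nothing of binding. For 4 of these genes the sequence is shown with the match in capitals, in the orientation of the gene. For B2m, Gbp7 and Irgm2 the window is printed without bases that GENCODE places in an exon of the gene. GENCODE places Irgm2 at 11:58199618-58222782, so its printed window lies inside that gene, outside its exons. For Gbp2 only 30 bases around the match are shown, of which 22, with all 10 of the match, lie in a GENCODE exon, since GENCODE starts the gene upstream of the RefSeq start. They are B2m (chr2:122147437-122147685, plus strand, match 139 bases before the start), Gbp7 (chr3:142530086-142530335, plus, 53), Irgm2 (chr11:58214727-58214976, plus, 64) and Gbp2 (chr3:142620594-142620623, plus, 59).
B2m: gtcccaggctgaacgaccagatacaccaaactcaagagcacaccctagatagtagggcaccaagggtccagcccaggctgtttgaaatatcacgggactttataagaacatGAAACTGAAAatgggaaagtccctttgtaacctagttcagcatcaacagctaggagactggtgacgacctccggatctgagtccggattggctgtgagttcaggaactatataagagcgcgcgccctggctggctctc
Gbp7: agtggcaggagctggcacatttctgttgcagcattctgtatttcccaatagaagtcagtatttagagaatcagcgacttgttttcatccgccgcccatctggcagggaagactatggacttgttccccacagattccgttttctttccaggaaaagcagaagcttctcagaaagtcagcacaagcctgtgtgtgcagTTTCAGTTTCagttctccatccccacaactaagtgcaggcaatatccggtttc
Irgm2: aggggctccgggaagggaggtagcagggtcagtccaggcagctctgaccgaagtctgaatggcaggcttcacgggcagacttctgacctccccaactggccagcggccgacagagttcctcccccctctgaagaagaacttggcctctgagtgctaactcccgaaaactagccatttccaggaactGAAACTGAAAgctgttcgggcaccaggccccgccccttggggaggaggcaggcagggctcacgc
Gbp2: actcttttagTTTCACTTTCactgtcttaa
B2m and Irgm2 read in the GAAA orientation, and Gbp7 and Gbp2 in the TTTC orientation. TGACGTCA was found for 4 of 56 higher genes (7.14%: Maff, Plk2, Ppp1r15a and Zscan18), for 1 of 55 lower genes (1.82%) and for 212 measured genes (3.58%).

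The immediate early list stood higher with gluten. Over all delta cells their median log2 ratio was 1.21, against -0.04 for all genes, and 15 of 24 measured members were 2-fold higher and 0 lower. In marker-free delta cells the median was 1.11, with 13 of 22 members 2-fold higher, 0 lower and 25 of 27 above 0. Fos, the AP-1 subunit, stood at 2435 and 1176 CPM (1.05 [1.00, 1.10]), Fosb at 962 and 335 (1.52), Junb at 1081 and 381 (1.505) and Jund at 3000 and 1256 (1.26). The orphan nuclear receptor Nr4a1 stood at 75.8 and 23.1 (1.71). Crem, a cyclic AMP-responsive factor, went the other way, at 45.4 and 74.7 (-0.72). In marker-free delta cells the list summed to 13208 and 6020 CPM over its 27 members with at least 10 UMIs. It was not the list with the highest median. Over all delta cells the mesenchymal (4.89), endothelial (2.83) and metallothionein (2.18) lists lay above it, and in marker-free cells the acinar enzymes (2.63) and the metallothioneins (2.26).

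Of the other stress lists, the heat shock and unfolded protein response lists had medians nearer 0, and the metallothioneins did not. Of 17 measured heat shock chaperones 1 was 2-fold higher and 0 lower in marker-free delta cells, with a median of 0.36. Dnajb1, a co-chaperone, stood at 246 and 110 CPM (1.16). Both measured metallothioneins, Mt1 and Mt2, were 2-fold higher, and the median of the 3 metallothioneins was 2.26. The unfolded protein response list had a median of -0.09 and 1 of 26 members 2-fold higher, Ppp1r15a, which directs dephosphorylation of eIF2 alpha, at 192 and 75.3 CPM (1.35). Its lowest member was Pdia3, a disulfide isomerase, at 662 and 868 (-0.39). Socs3, a feedback inhibitor of cytokine receptors, was the 1 interferon list member that was 2-fold higher, at 39.9 and 9.49 CPM (2.07).

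The interferon response list stood lower with gluten, with the lowest median of the lists in marker-free cells. Over all delta cells the acinar enzymes lay below it, with a median of -3.94 and 18 of 18 measured members 2-fold lower, where 1 HC cell held most of the UMIs. The interferon median was -1.09 over all delta cells, with 4 of 37 measured members 2-fold higher and 21 lower, and -1.19 in marker-free cells, with 1 of 33 higher, 21 lower and 44 of 48 below 0. The summed T cell list stood at 16.3 and 18.7 CPM in these marker-free cells, the B cell list at 57.7 and 35.8 and the macrophage list at 224 and 229. Marker-free cells may still hold fewer than 10 UMIs of each such list. Rtp4 and Gbp8, the members called higher in delta cells than in all other classes, stood at 61.3 and 161 CPM (-1.40) and at 41.6 and 94.3 (-1.18). Not every member was lower: Irf1, a first-wave interferon gamma target, stood at 85.5 and 71.2 (0.26 [0.03, 0.51]), and the chemokine Cxcl10 at 41.0 and 21.2 (0.95).

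MHC class I genes, which present peptides to CD8 T cells, were lower with gluten. Their median was -0.95 over all delta cells (7 of 19 measured 2-fold lower, 0 higher) and -1.02 in marker-free cells (11 of 19 lower, 0 higher, 20 of 21 below 0). B2m, the invariant light chain (2:122147686-122153083, plus), stood at 823 and 1975 CPM (-1.26 [-1.32, -1.20]). The heavy chains H2-D1, at 1354 and 2878 (-1.09), and H2-K1, at 950 and 2007 (-1.08), lay close to it. The immunoproteasome subunits Psmb8, at 220 and 509 (-1.21), and Psmb9, at 109 and 259 (-1.24), and the peptide transporter Tap1, at 27.8 and 64.2 (-1.21), lay there as well. H2-Q10 was the 1 member above 0, at 5.52 and 5.38 (0.04). Apart from H2-Q10, the log2 ratios of the genes named here lay between -1.26 and -1.08. The list as a whole was less uniform, and 11 of its 19 measured members were 2-fold lower. Smaller differences were seen over all delta cells for H2-M3, at 52.7 and 82.2 CPM, and H2-Q4, at 64.3 and 104. H2-D1 and Erap1, a peptide-trimming enzyme, were also called higher in delta cells than in the 3 other classes (H2-D1 log2 fold 0.66, 0.50 and 0.66, largest edgeR adjusted p = 0.0271).

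MHC class II genes, usually confined to antigen-presenting cells, depended on the barcodes with other lineages' markers. Their median was -0.29 over all delta cells and -1.06 without those barcodes, where 4 of 6 measured members were 2-fold lower with gluten. Cd74, the invariant chain, stood at 1101 and 1346 CPM over all delta cells (-0.29) and at 570 and 1194 in marker-free ones (-1.07). After thinning, a Cd74 UMI was seen in 27.5% and 51.9% of delta cells (23.8% and 50.9% of marker-free ones) and in 43.7% and 24.8% of T cells, so the order of the libraries differed between these 2 cell types. Ciita, the class II transactivator, was low, at 1.70 and 5.70 CPM in marker-free delta cells.

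**Figure D3:**
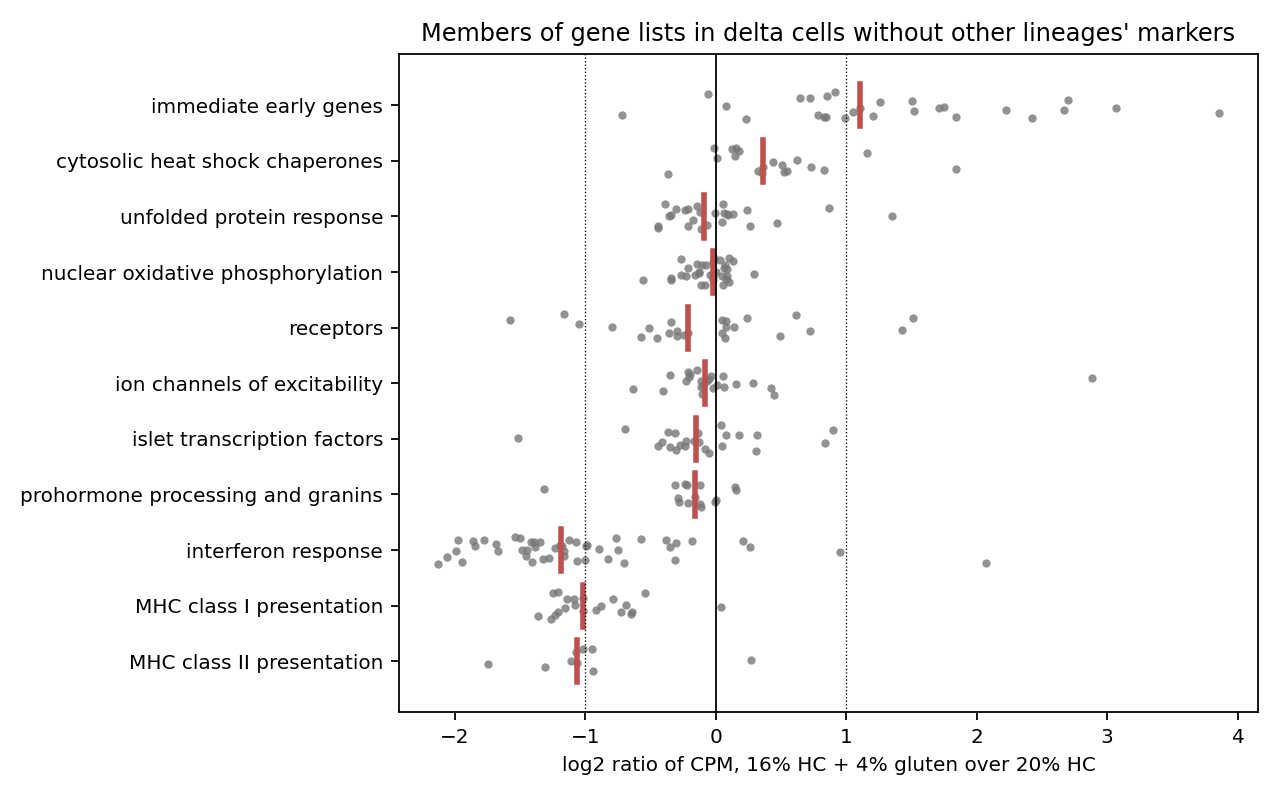
Log2 ratios of CPM between the gluten and the HC library for the members of gene lists in marker-free delta cells, 1 point per gene with at least 10 UMIs. Immediate early genes lie mostly to the right of 0 (25 of 27) and interferon and MHC class I genes mostly to the left (44 of 48 and 20 of 21 below 0). Of all 12225 genes with at least 10 UMIs, 5152 lie above 0 and 7073 below.

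In the lists of delta cell identity and secretion, 2-fold differences were few, as among all measured genes (1.76% higher and 1.21% lower). Of 19 measured islet transcription factors 0 were 2-fold apart over all delta cells, with a median of -0.16, and 11 of 24 members had intervals below 0 and 1 above. Among all 13011 genes with at least 10 UMIs, 1442 had intervals below 0 and 1124 above, and 7181 had ratios below 0. Hhex stood at 434 and 452 CPM in marker-free delta cells (-0.06 [-0.15, 0.04]) and Foxa2, the lowest, at 38.2 and 62.0 (-0.70). Of 14 measured prohormone processing genes, 19 ion channels, 13 receptors and 34 genes of nuclear oxidative phosphorylation, 0 were 2-fold apart over all delta cells, with medians of -0.19, -0.05, 0.01 and -0.04. In the prohormone processing list 13 of 15 members were lower with gluten, 10 of them with intervals below 0 and 2 members with intervals above. Intervals below 0 thus made up a larger share of the transcription factor and prohormone processing lists than of all genes. The lowest member of the prohormone processing list was Vgf, a granin with too few UMIs to count as measured, at 1.10 and 2.93 CPM (-1.41 [-3.13, 0.15]). Among 10 measured hormones Pdyn alone was 2-fold lower with gluten, at 65.4 and 150.0 CPM in marker-free cells (-1.20 [-1.41, -0.99]), and at 66.5 and 147 over all. A Pdyn UMI was seen in 8.13% [6.09, 10.6] and 19.9% [15.6, 24.7] of thinned delta cells (8.36% and 19.5% of marker-free ones) and in 0.0839% and 0.0918% of T cells. Arg1 stood at 285 and 401 CPM (-0.49 [-0.61, -0.38]), and Amd2, a decarboxylase of polyamine synthesis, at 5.73 and 17.7 (-1.63).

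The differences were spread over cells rather than carried by a few. Per 10000 UMIs, the median delta cell held 29.0 MHC class I UMIs with gluten (quartiles 15.3 and 68.6) and 86.4 without (62.4 and 123). Immediate early genes had medians of 127 (87.3 and 176) and 53.5 (34.9 and 87.2), and here the quartile ranges of the libraries met without overlapping, while those of class I overlapped. In marker-free delta cells the medians were 24.4 and 85.4 for class I and 127 and 51.6 for immediate early genes. The interferon list had medians of 7.72 and 15.4, heat shock chaperones of 68.9 and 57.0, Iapp of 228 and 257 and Rbp4 of 113 and 119. B2m was seen in 51.2% [47.2, 55.2] and 90.1% [86.2, 93.1] of thinned delta cells, and in 98.6% and 98.9% of T cells. Among marker-free delta cells the B2m shares were 48.0% and 89.5%. Atf3 was seen in 40.3% and 4.17% of delta cells (39.7% and 4.69% of marker-free ones) and in 9.73% and 1.47% of T cells.

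**Figure D4:**
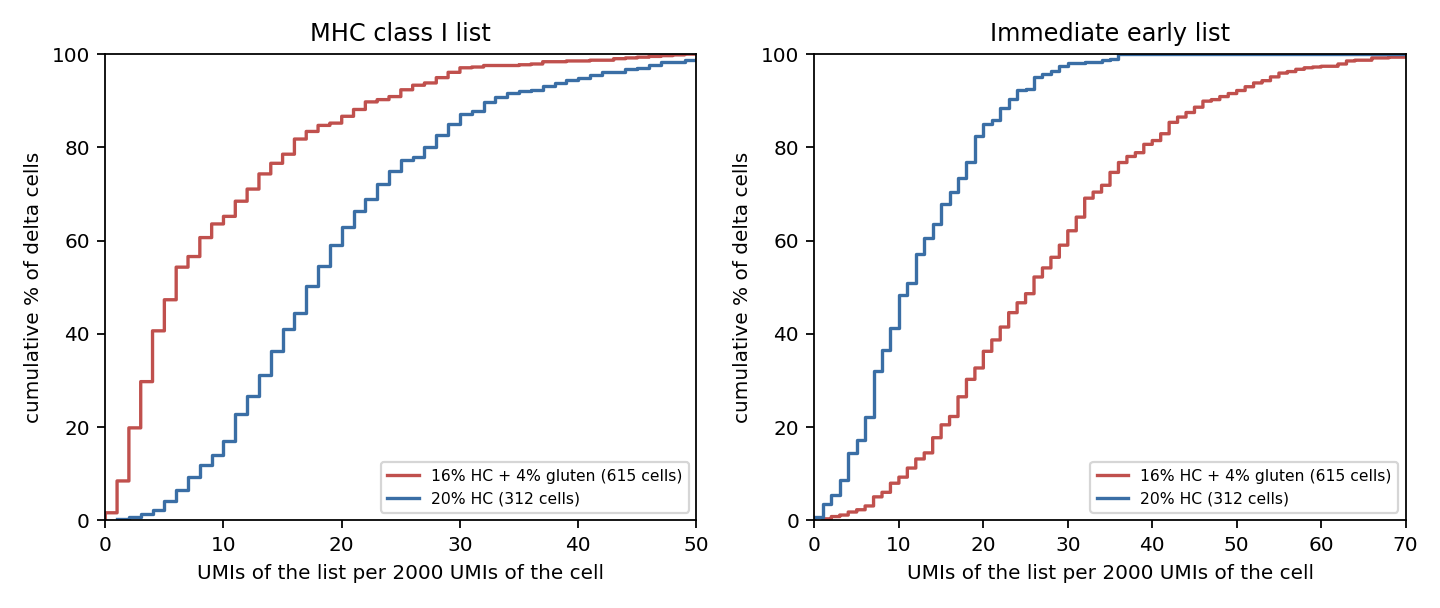
Cumulative share of delta cells (vertical axis, %) by the UMIs of the MHC class I list and of the immediate early list per 2000 UMIs of the cell (horizontal axis), 1 line per library with 615 and 312 cells. The HC library lies to the right for MHC class I, where 2.24% of its cells and 40.7% of the gluten cells held 0 to 4 UMIs, and to the left for immediate early genes.

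With gluten, delta cells covered the whole MHC class I range. Of the 615 cells 40.7% held 0 to 4 class I UMIs per 2000, 22.9% held 5 to 9, 21.6% held 10 to 19 and 14.8% held 20 or more. Without gluten the shares were 2.24%, 11.9%, 44.9% and 41.0%. Of marker-free delta cells the lowest range held 43.1% and 2.53% and the highest 14.1% and 40.4%. At 0 to 4 UMIs, alpha cells shifted in the same direction, from 51.2% to 5.70%, and so did beta cells, from 70.3% to 44.8%. The beta cells in these ranges are the 1409 and 1762 with at least 10% insulin UMIs. Whether classes differ was not tested. Hormone UMIs count among the 2000, and Ins2 alone took 400372 and 408300 CPM in beta cells by the 1% limit. The ranges are therefore not on 1 scale between classes. Across delta cells of a library, each thinned to 2000 UMIs, the interferon and class I lists correlated with Spearman rho 0.49 (615 cells) and 0.45 (312 cells), and the class II and class I lists with 0.55 and 0.62. Over marker-free delta cells these were 0.46 and 0.42, and 0.54 and 0.63. The immediate early and class I lists gave -0.21 and 0.02. The class I level correlated with a cell's depth before thinning at 0.12 and 0.24. Cells of 1 library share mice, droplets and free RNA, and these values describe them without a test.

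**Figure D5:**
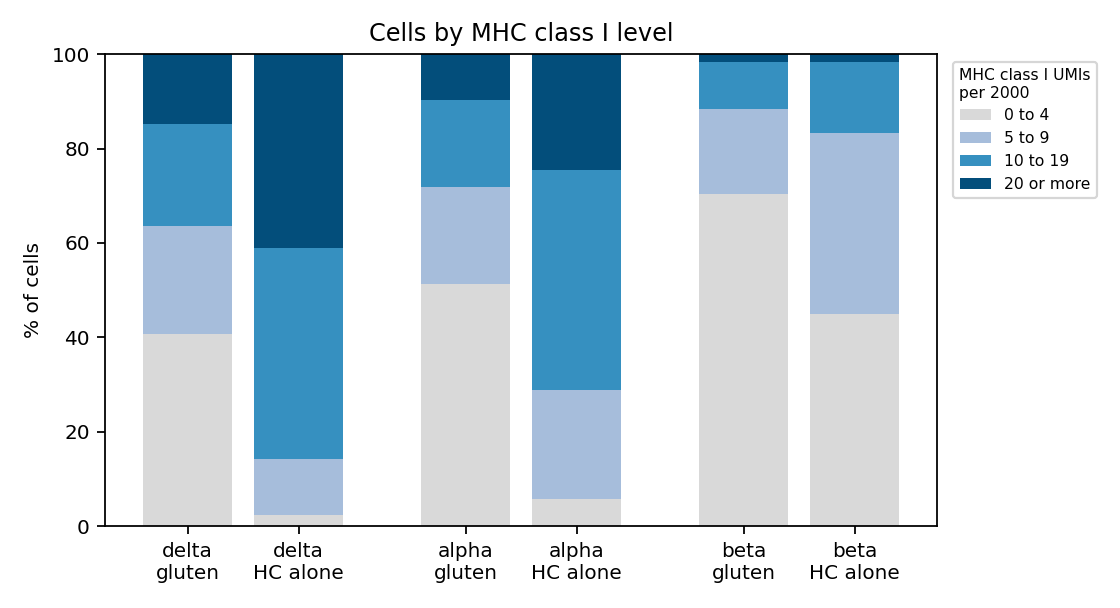
Share of delta, alpha and beta cells (vertical axis, %) in 4 ranges of MHC class I UMIs per 2000 UMIs, 1 bar per class and library. The lowest range holds 40.7% of delta cells with gluten and 2.24% without, and 70.3% and 44.8% of beta cells. The 2000 UMIs include hormone UMIs, so the ranges are not on 1 scale between classes.

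In the other endocrine classes the same lists, without barcodes holding other lineages' markers, gave medians of the same signs. Immediate early genes had a median log2 ratio of 1.11 in delta cells, 0.84 in alpha, 1.68 in beta and 0.88 in PP cells. The interferon list gave -1.19, -0.90, -0.54 and -1.34 and the class I list -1.02, -0.51, -0.48 and -1.39, where all genes gave -0.06, 0.06, 0.01 and -0.11. PP cells numbered 38 and 38 here. The differences between classes were not tested, and nothing here is particular to delta cells by test.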

How the data were processed

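Pancreatic islet cells were profiled with 10x Genomics 3' chemistry, 1 library per diet. The authors deposited raw UMI counts per gene and barcode. Cell Ranger 4.0.0 and mm10 stand in the submitters' processing notes, and neither the cell calling nor the annotation release is given in the sources used here. Of 31053 identifiers 30934 matched a GENCODE vM21 symbol. The members and all 34 gene lists were chosen with earlier results of these data known.

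UMIs were summed per class and library. Classes were compared with edgeR 4.0.16 in R 4.3.3 (~ class + library over 8 sums, adjusted p below 0.05), with DESeq2 1.42.0 as an alternative. The library is the block because classes of 1 library share mice and droplets. The test was also run on simulated counts with folds planted in delta sums and equal means across classes for the other genes. That run counted which planted genes were called and did not compare estimated with planted folds. It held no shift of scale between classes, so it cannot show how the calls behave under one. Between diets, log2 ratios of CPM carry exact conditional binomial 95% intervals, shares carry exact Clopper-Pearson and their differences Newcombe intervals. A count of 0 was set to a floor of 3 counts. A gene was measured with 50 UMIs in the library of higher CPM and entered list medians with 10 UMIs over both libraries. Cells were thinned to 2000 UMIs where shares of cells are compared. Doublets were not removed from the delta cells. Removing the 6% highest Scrublet scores (scanpy 1.11.5) is an alternative.

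Named genes are the delta markers, the 14 highest and 8 lowest by smallest fold over the 3 contrasts, the 12 highest and 12 lowest by interval bound between diets outside the acinar list (over all and over marker-free cells), the extreme members of each list, and up to 6 most abundant members of 7 lists. Other names were chosen after their values were seen, and some withheld genes are not reported here.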

Additional observations from a re-analysis of the deposited data

How the results depend on the processing

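The share difference of 5.29 points was 4.34 with other hormones held below 5% of Sst. The count of genes 2-fold higher with gluten was 143, 78 without cells carrying other lineages' markers and 649 with 10 UMIs as the minimum. The count of lower genes was 98, 57 without cells of 10 or more acinar UMIs and 327 with 10 UMIs as the minimum. The share of 2-fold genes that were higher was 59.3%, 48.8% with Sst at least 5% of UMIs and 64.9% after TMM scaling. List medians moved for metallothioneins (2.18) to 2.33 without cells of 10 or more acinar UMIs and 2.26 in marker-free cells, for MHC class II to -1.06 in marker-free cells, for acinar enzymes (-3.94) to -4.25 with other hormones below 5%, 0.40 without cells of 10 or more acinar UMIs, 2.63 in marker-free cells and -1.97 as a mean over cells, for T cell markers (-0.72) to -0.057 without the highest Scrublet scores and 0.035 in marker-free cells, and for endothelial markers (2.83) to 0.028 in marker-free cells and 1.39 as a mean over cells. Immediate early, interferon and MHC class I medians kept their sign under every setting run. Single genes turned their sign without the cells that carried them. Serpina1b was at -0.094 with Sst at least 5% and -0.16 in marker-free cells. Without cells of 10 or more acinar UMIs and in marker-free cells, Ctrl was at 1.28 and 2.88, 2210010C04Rik at 0.86 and 2.44, Amy1 at 2.08 and 4.33, Ctrc at 0.86 and 2.17 and Tff2 at 1.28 and 1.75. Pla2g1b was at 2.42 in marker-free cells. Without the highest Scrublet scores and in marker-free cells, Ccl8 was at 1.28 and 1.54 and Cxcl13 at 0.21 and 0.42. For these turns the removal of the cells is the cause by construction.

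The 323 higher and 191 lower genes between classes became 2929 and 78 on the total of all UMIs, 241 and 133 with no replicate block, 391 and 246 with no filter, and 321 and 222 with DESeq2. Leaving out either library left no residual degrees of freedom, so those folds per library have no test. Of the other values, 385 of comparisons and lists and 1009 of single genes kept their direction and their side of the threshold or stayed within their error, while 138 of single genes moved and 5 became weaker. Depth limits low genes most: with 3 counts as the floor, a gene at 0 in delta cells may still reach 0.551 and 0.800 CPM.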
